A study of Mus musculus with 15 samples.

Results

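Paraspeckles are nuclear bodies built on the long non-coding RNA Neat1, and the genes described here are Neat1, 4 proteins of the nuclear RNA-binding machinery (Sfpq, Nono, Pspc1 and Matr3) and Malat1, the non-coding RNA of the neighbouring nuclear speckles. These 6 genes were picked by symbol and found in the mouse annotation (GENCODE release M21) among the 55536 annotated genes of the count table. All 6 were among the 24262 genes that passed the filter on low counts. The data are poly(A) RNA-seq of transferred OT-I CD8+ T cells, which carry a receptor for the ovalbumin peptide SIINFEKL and came from Rag1- or Rag2-deficient donors, in C57BL6/J recipients. Both groups received the peptide: the Ag group (5 libraries) together with control rat IgG, and the Ag+Costim group (5 libraries) together with agonist antibodies to the costimulatory receptors OX40 and 41BB. The labels give day 4 for collection, and the study's methods give a slightly shorter time. Transferred CD8+, CD45.1+ cells with the OT-I receptor chains were sorted from spleen and lymph nodes, and the study's methods give mice of both sexes and a range of ages. The labels also list 5 Naive libraries, which were not analysed here. The labels number the libraries without naming animals, and the study describes them as biological replicates from separate mice.

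Sfpq, Nono and Pspc1 form one protein family, pair with each other in any combination and bind long Neat1 to build the paraspeckle, while also acting in transcription and pre-mRNA splicing. Matr3 is a nuclear matrix protein that binds RNA and represses splicing at many exons. Neat1 is made as a short RNA with a poly(A) tail and as a long RNA, and only the long form builds paraspeckles. Long Neat1 and Malat1 have no ordinary poly(A) tail: RNase P cuts their 3′ end, and a triple helix of U-rich and A-rich stretches protects it.

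The sequences that set these 3′ ends apart are shown first, because the libraries were primed on poly(A). In Malat1 (transcript Malat1-201, chr19:5795972-5796075, minus strand, mm10) and at the end of long Neat1 (Neat1-201, chr19:5824708-5824807, minus strand) the capitals mark, in order, the U-rich stretches TTTCTTTT and TTTTGCTTTT and the A-rich stretch AAAAAGCAAAA. The 3′ end of short Neat1 (Neat1-202, chr19:5842307-5842366, minus strand) holds the polyadenylation signal AATAAA, in capitals.
Malat1-201: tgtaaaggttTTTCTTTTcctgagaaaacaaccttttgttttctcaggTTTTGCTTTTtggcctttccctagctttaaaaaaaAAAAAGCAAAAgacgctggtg
Neat1-201: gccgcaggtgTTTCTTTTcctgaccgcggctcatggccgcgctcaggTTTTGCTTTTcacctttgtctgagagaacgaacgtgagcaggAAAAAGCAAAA
Neat1-202: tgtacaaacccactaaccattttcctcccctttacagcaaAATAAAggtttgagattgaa
The 3 stretches in this order, with at most 120 bases between neighbours, were found on the sense strand of 2 of 141767 annotated transcripts, Malat1-201 and Neat1-201. The search used the stretches marked above, so finding these 2 was certain, and the count adds only that no other annotated transcript held them. The A-rich stretch was the last sequence of Neat1-201, and 292 annotated bases followed it in Malat1-201. AATAAA stood in the last 60 bases of 27.2% of the annotated transcripts of at least that length. These RNAs reach an oligo-dT library through internal A-rich stretches or a tail, and which of these gave the counts was not tested.

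Total counts per library (in units of 1e6 counts) were between 59.6 and 449 in Ag and between 332 and 639 in Ag+Costim. These are estimated from coverage, so they are not numbers of reads. The number of genes with a count was 48058, 21779, 51778, 40441 and 20714 in Ag libraries 1 to 5, against 28727 to 30340 in Ag+Costim, so the Ag libraries differed much more among themselves. All libraries ran on lane 4, with mean fragment sizes of 356 to 384 bases. The CD8 T cell markers (8 of 8 tested, summed level 4418 to 8655 CPM in Ag and 6218 to 7261 in Ag+Costim) were high in every library. B cell markers summed to 659 to 1222 CPM in Ag and 531 to 783 in Ag+Costim, with 7 of 7 lower in Ag+Costim and none of them at 0 in every library. Erythroid markers reached 1084 CPM in Ag library 3, against at most 39.8 in Ag+Costim. Myeloid markers were present in both groups, at 54.8 to 151 CPM in Ag and 85.1 to 184 in Ag+Costim, with 5 of 8 higher in Ag+Costim. CD4 T cell markers summed to 3.74 to 26.3 CPM in Ag and 3.16 to 8.20 in Ag+Costim, with 4 of 4 lower in Ag+Costim.

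Across all genes, edgeR's quasi-likelihood test with Benjamini-Hochberg (BH) adjustment called 0 of 24262 genes (0%) between Ag+Costim and Ag, and 4501 genes had an unadjusted p under 0.05. DESeq2 called 2.57% of 36117 genes higher and 19.7% lower in Ag+Costim. limma voom with library quality weights called 25.3% of 24262 genes higher and 25.4% lower. No result on the 6 genes below therefore passed the main test, and differences are given as values with these 3 models side by side. The models use the same libraries and are not independent of each other. limma voom gave Ag libraries 2 and 5 weights of 0.0985 and 0.0654, against 0.508 to 3.52 for the others, so its values come close to leaving those 2 libraries out.

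Pspc1 was the one gene of the 6 whose groups did not overlap. Pspc1 (ENSMUSG00000021938.12, chr14:56720710-56778316, minus strand) is the least abundant of the 3 family members per transcript length. Its TMM-scaled level was 23.8, 59.6, 34.7, 24.2 and 47.4 CPM in Ag libraries 1 to 5 and 65.5, 69.4, 71.8, 79.2 and 74.1 CPM in Ag+Costim libraries 1 to 5. Every Ag+Costim library was above every Ag library, which held for 4.48% of all genes tested. The fitted difference in edgeR was a log2 fold change of 0.92 ± 0.25 (SE), or 1.89-fold, with a BH-adjusted p of 0.194. It was 0.0101 in DESeq2 and 3.8e-05 in limma voom. The median log2 fold change over the 8626 genes with a mean of at least 10 CPM was 0.24, so the difference of Pspc1 beyond that median was 0.68. The groups stayed apart under TMM, RLE, total-count and upper-quartile scaling. They also did with any 1 library left out, which could hardly come out otherwise once the full groups are apart.

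Nono is the most abundant protein-coding member per transcript length and an RNA- and DNA-binding partner of Sfpq. Nono (ENSMUSG00000031311.17, chrX:101429318-101448591, plus strand) was at 253, 550, 347, 279 and 587 CPM in Ag and 553, 531, 593, 641 and 620 CPM in Ag+Costim. Ag libraries 2 and 5 lay among the Ag+Costim libraries, and Ag libraries 1, 3 and 4 lay below all of them. Nono had a log2 fold change of 0.54 ± 0.25, with an adjusted p of 0.270 in edgeR, 0.103 in DESeq2 and 5.0e-05 in limma voom.

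Sfpq, a splicing and transcription factor, was also higher on average in Ag+Costim, with a log2 fold change close to that of Nono. Sfpq (ENSMUSG00000028820.13, chr4:127021324-127037013, plus strand) was at 66.7, 104.2, 70.3, 66.5 and 81.1 CPM in Ag and 86.7, 123.8, 131.1, 116.8 and 102.5 CPM in Ag+Costim. Under TMM scaling, only Ag library 2 reached into the range of the Ag+Costim libraries. As a percent of total counts, Ag libraries 1 to 4 (0.0093, 0.0095, 0.0085 and 0.0083%) were above Ag+Costim library 1 (0.0081%). Ag library 5 (0.0067%) was below it. Per transcript length, Ag library 1 was highest of all (71.4 TPM) and Ag library 5 lowest (35.4 TPM). With scaling to total counts, the log2 fold change was 0.27. Beyond the median of genes with at least 10 CPM, it was 0.29 under TMM and 0.27 under total counts. Sfpq had a log2 fold change of 0.52 ± 0.17, with an adjusted p of 0.230 in edgeR, 0.0394 in DESeq2 and 0.0057 in limma voom.

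Matr3 showed the smallest difference of the 4 proteins. Matr3 (ENSMUSG00000037236.16, chr18:35562138-35593835, plus strand) was at 181, 254, 189, 213 and 204 CPM in Ag and 263, 243, 273, 273 and 283 CPM in Ag+Costim. Ag library 2 was above Ag+Costim library 2, and the other libraries did not cross. Without Ag library 2 and under TMM scaling, every Ag+Costim library was above every Ag library for Matr3 and for Sfpq, as for 5.55% of all genes. Matr3 had a log2 fold change of 0.36 ± 0.14, with an adjusted p of 0.253 in edgeR, 0.0464 in DESeq2 and 0.0041 in limma voom. With scaling to total counts, where the median of the 8626 genes was 0.00, the log2 fold change of Matr3 was 0.08. Its count cannot be told apart from that of the overlapping same-strand gene Gm28285, which held 42 to 4500 counts per library.

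Malat1 was lower on average in Ag+Costim, and of the 6 genes it had the highest coefficient of variation within Ag (77.0%, against 22.6% within Ag+Costim). Malat1 (ENSMUSG00000092341.3, chr19:5795690-5802672, minus strand) was at 2239, 665, 561, 2319 and 413 CPM in Ag and 428, 384, 343, 224 and 320 CPM in Ag+Costim. Ag libraries 1 and 4 were far above the rest, and Ag library 5 was just below Ag+Costim library 1, so the groups met at that one pair. Malat1 had a log2 fold change of -1.87 ± 0.50, with an adjusted p of 0.193 in edgeR, 0.0027 in DESeq2 and 5.3e-05 in limma voom. Under TMM scaling, where Malat1 overlapped, 1.13% of all genes tested were lower in every Ag+Costim library than in every Ag library. Under upper-quartile scaling Malat1 was lower without overlap, as were 2.28% of all genes tested. An antisense entry, Gm37376, lies within Malat1 and held 0 to 9556 counts, and the library kit does not mark strand.

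Markers of proliferation and of B cells also differed among the Ag libraries. Mki67, a proliferation marker chosen after its values were seen, was at 93.1, 402, 237, 98.2 and 222 CPM in Ag libraries 1 to 5 and at 416 to 469 CPM in Ag+Costim. Its 2 lowest values were thus in the 2 Ag libraries with most Malat1. The B cell marker Cd79a was at 23.1, 2.44, 91.7, 32.5 and 1.31 CPM in the same Ag libraries, highest in library 3, where Malat1 was not high. Ighm, the B cell marker with the highest level, went another way, at 861, 626, 592, 1037 and 733 CPM. The 7 B cell markers summed to 993, 659, 927, 1222 and 774 CPM. Both Ighm and this sum were highest in Ag libraries 4 and 1, the libraries with most Malat1. The part of these measures in the Malat1 difference was not tested. In bulk RNA, fewer cells of a type and less RNA per cell cannot be told apart.

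Neat1 showed no difference beyond the spread. Neat1 (ENSMUSG00000092274.3, chr19:5824708-5845478, minus strand) was at 44.4, 30.1, 26.0, 52.0 and 7.56 CPM in Ag and 37.9, 31.7, 22.3, 15.2 and 25.4 CPM in Ag+Costim. Ag library 5 was lowest of all and Ag library 4 highest, so the Ag group spanned the whole Ag+Costim range. Neat1 had a log2 fold change of -0.28 ± 0.43, with an adjusted p of 0.686 in edgeR, 0.435 in DESeq2 and 0.064 in limma voom.

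**Figure D1:**
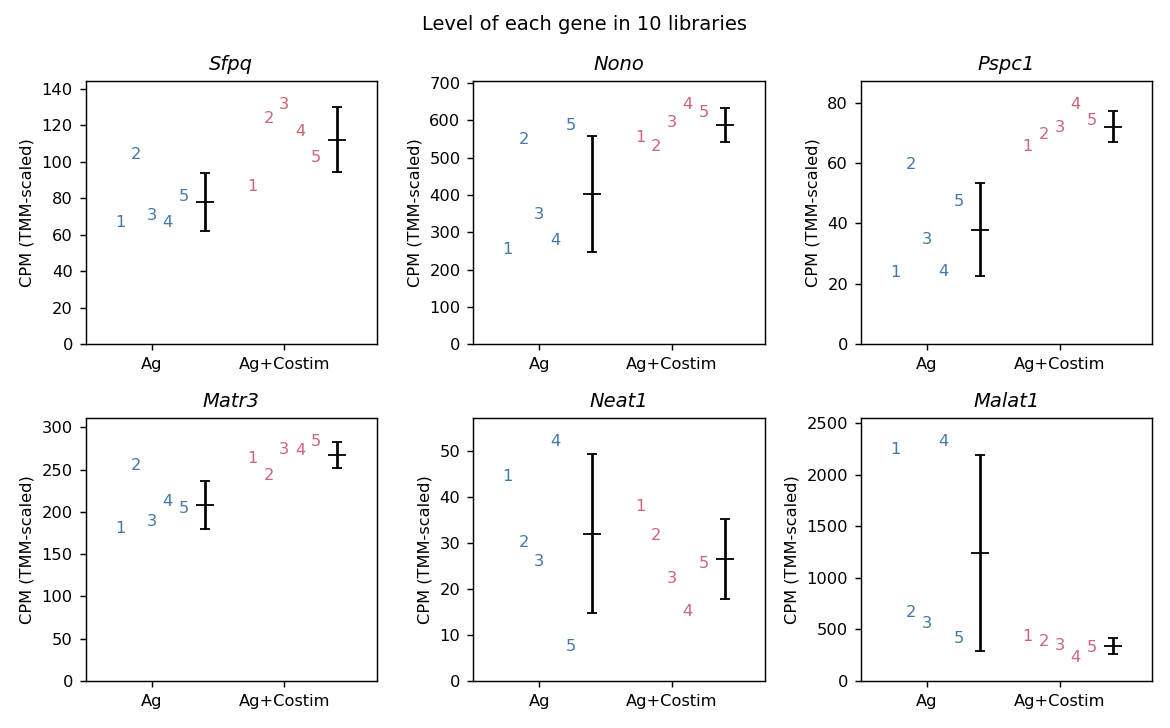
Level of each of the 6 genes in TMM-scaled CPM (vertical axes from 0) in the 5 Ag and 5 Ag+Costim libraries. Each digit is the library with that replicate number, and the bar gives the mean ± SD. The groups are apart for Pspc1, and Ag libraries 1 and 4 stand high for Malat1 (2239 and 2319 CPM).

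The values depended on which Ag libraries were kept. Without Ag libraries 2 and 5, which have the fewest genes with a count, the log2 fold changes in edgeR were 0.84 for Sfpq, 1.12 for Nono, 1.5 for Pspc1, 0.57 for Matr3 and -2.24 for Malat1, with adjusted p of 0.0024, 0.000411, 0.000404, 0.0029 and 0.0034. Without Ag libraries 1, 3 and 4, they were 0.30, 0.08, 0.46, 0.25 and -0.64, with adjusted p of 0.267, 0.575, 0.0520, 0.180 and 0.133, and Neat1 was at 0.50 (adjusted p 0.545). Over all genes, the fit without Ag 2 and 5 called 17.9% of 33480 genes higher and 30.8% lower, and the fit without Ag 1, 3 and 4 called 7.51% of 25394 genes higher and 3.32% lower. The sign was kept for 5 of the 6 genes in both cases, and that of Neat1 turned. These libraries were left out after the data were seen.

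**Figure D2:**
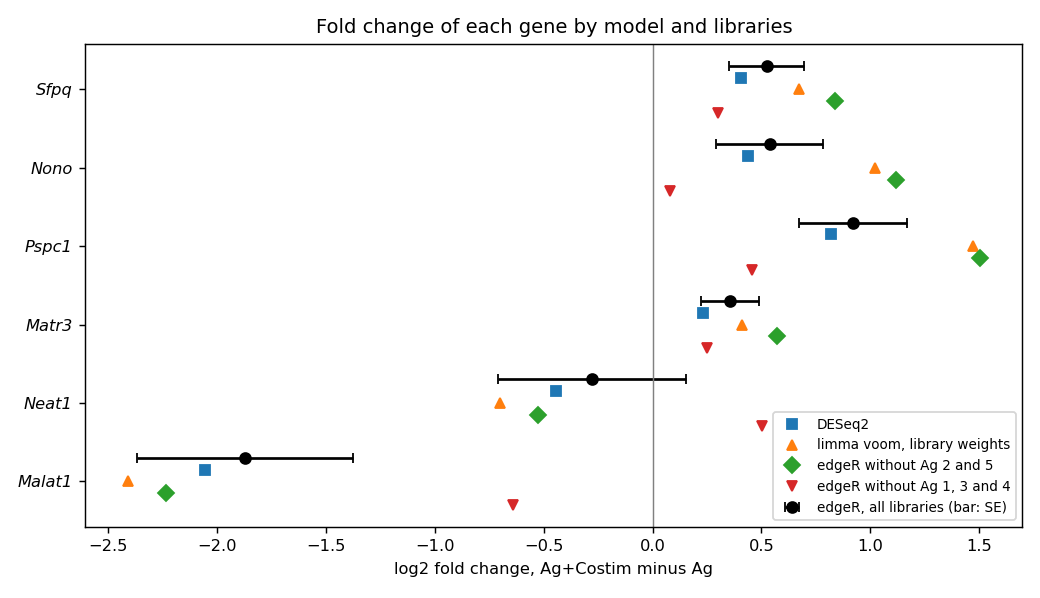
The log2 fold change of Ag+Costim over Ag (horizontal axis) for each gene in edgeR with all libraries (black, bar ± SE), in DESeq2 and limma voom, and in edgeR with Ag libraries left out. Without Ag 2 and 5 Pspc1 is at 1.5 and Malat1 at -2.24, and without Ag 1, 3 and 4 they are at 0.46 and -0.64.

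Per transcript length, the order of the 6 genes differed between the groups. In Ag, Malat1 was highest with 349 ± 315 TPM (SD, n = 5), then Nono with 263 ± 34.9, Matr3 with 70.3 ± 15.9, Sfpq with 53.0 ± 13.8, Pspc1 with 15.5 ± 3.23 and Neat1 with 3.30 ± 2.13. In Ag+Costim, Nono was highest with 355 ± 24.2 TPM, followed by Matr3 with 83.2 ± 11.0, Malat1 with 74.5 ± 17.4, Sfpq with 58.9 ± 6.95, Pspc1 with 27.3 ± 1.62 and Neat1 with 2.77 ± 0.66. In Ag the means of Nono, Matr3 and Sfpq lay within 1 SD of Malat1 from its mean, and in Ag+Costim those of Matr3 and Sfpq did. In Ag libraries 2, 3 and 5 Nono was above Malat1 (310, 264 and 283 TPM against 135, 151 and 72.0).

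By transcript counts, each gene was mainly 1 transcript. In edgeR, 0.0100% of 59949 transcripts passed the threshold and none of the members' did. The test of transcript usage called 0.297% of 10441 genes, and none of the 5 members tested, with an adjusted p of 1.0 each. Malat1 was counted on 1 transcript and could not be tested. Sfpq-201, the coding transcript, held 75.4, 91.8, 93.5, 80.7 and 91.3% of Sfpq counts in Ag and 89.8 to 94.2% in Ag+Costim. Sfpq-206, a non-coding transcript of the same gene, held 14.9, 5.55, 4.94, 11.01 and 6.77% in Ag and 3.86 to 7.75% in Ag+Costim. The highest non-coding shares were thus again in Ag libraries 1 and 4. Pspc1-201 held 94.7 to 99.9% of Pspc1 counts in Ag and 97.5 to 99.0% in Ag+Costim. Matr3-201 held 83.9 to 95.7% of Matr3 counts in Ag and 69.2 to 94.2% in Ag+Costim. Matr3-202, a coding transcript that starts further downstream, held 0 to 5.80% in Ag and 0 to 20.2% in Ag+Costim, and so differed mostly among the Ag+Costim libraries.

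Nono-202 keeps the start of an intron of Nono and ends in it (retained-intron class, 614 intron bases). The boundary is shown because it is where this transcript leaves the splicing of Nono-201: 30 exon bases in lower case, then 30 intron bases in capitals (chrX:101441788-101441847, plus strand, mm10).
Nono-202: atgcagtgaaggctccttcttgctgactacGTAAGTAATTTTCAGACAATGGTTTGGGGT
Its share of Nono counts was 3.27, 1.30, 1.71, 3.29 and 1.19% in Ag and 0.95, 1.01, 0.54, 0.70 and 0.79% in Ag+Costim. Every Ag+Costim library was below every Ag library, which held for 1.46% of the 45752 transcripts compared. The log2 fold change of the transcript was -0.69 ± 0.24 with an adjusted p of 0.460 in edgeR, and Nono-201 was at 0.55 ± 0.28. Over all protein-coding genes, transcripts of this class took 5.56, 2.82, 4.14, 5.36 and 2.25% of counts in Ag and 2.57 to 3.22% in Ag+Costim, and the part of this in the share of Nono-202 was not tested.

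**Figure D3:**
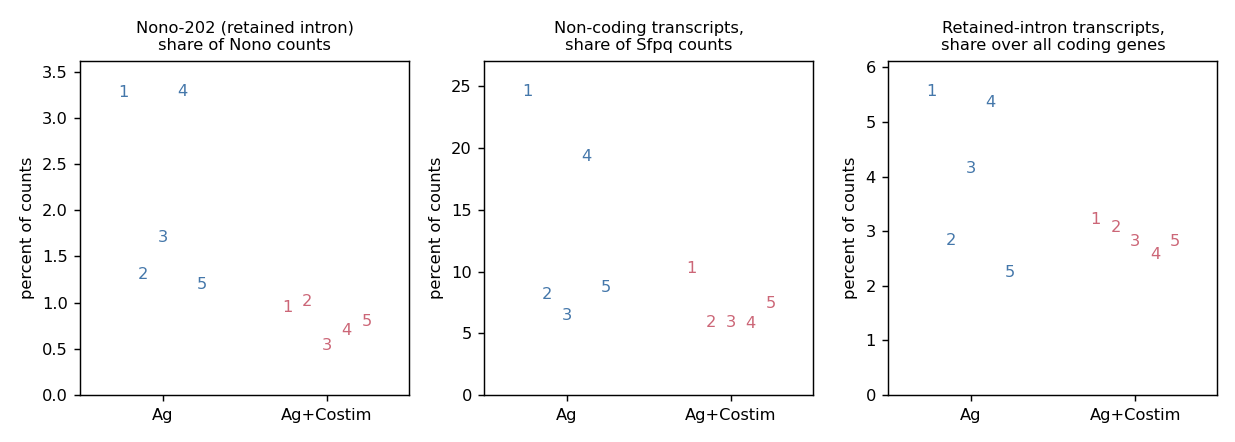
Percent of counts on Nono-202 (of Nono), on non-coding transcripts (of Sfpq) and on retained-intron transcripts (of all protein-coding genes) in each library, with digits as replicate numbers. Ag libraries 1 and 4 are highest in each panel, and the groups are apart for Nono-202 alone.

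Neat1 counts lay almost wholly on the long transcript. Neat1-201 (20771 bases) held 99.98, 100, 98.5, 97.3 and 85.1% of Neat1 counts in Ag and 99.8, 97.3, 84.8, 96.1 and 89.2% in Ag+Costim. The lowest shares, in Ag library 5 and Ag+Costim library 3, were alike. The difference of the means was -2.73 percentage points, with p = 0.484 in a two-sided exact permutation test over 252 assignments, in which the smallest possible p is 0.0079. Per transcript length the long share was 82.2% ± 23.5 (SD, n = 5) in Ag and 67.0% ± 20.7 in Ag+Costim, with p = 0.286 in the exact permutation test.

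The splicing table gave another picture of the Neat1 ends. It holds percent spliced in (PSI) from 0 to 1, with 1 pooled value per group, so no test was possible. Its group letters A and B were read as Ag and Ag+Costim, the letters of the count columns. Of 181 core exons with a PSI difference over 0.2 and enough transcript counts to compare, 130 (71.8%) differed in the same direction in those counts. Of 73 events of the 6 genes, 2 differed by more than 0.1, both starts of Neat1, against 5.87% of all 138940 events. The start of Neat1-202 was at 0.194 in Ag and 0.0077 in Ag+Costim. The start 217 bases downstream, that of another annotated Neat1 transcript, was at 0.807 in Ag and 0.993 in Ag+Costim. The 2 differences, -0.186 and 0.186, mirror each other, so these 2 events read as 1 shift. The end of short Neat1 was at 0.952 and 0.991, and the end of long Neat1 at 0.0476 and 0.0086. The PSI values thus placed most ends at the short form, while the transcript counts placed most on the long one. These are unlike measures, since the counts are not divided by transcript length. Per transcript length the long share was lower, at 42.8 to 100% in Ag (mean 82.2%) and 43.5 to 96.3% in Ag+Costim (mean 67.0%). The cause of this gap between the measures was not tested.

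**Figure D4:**
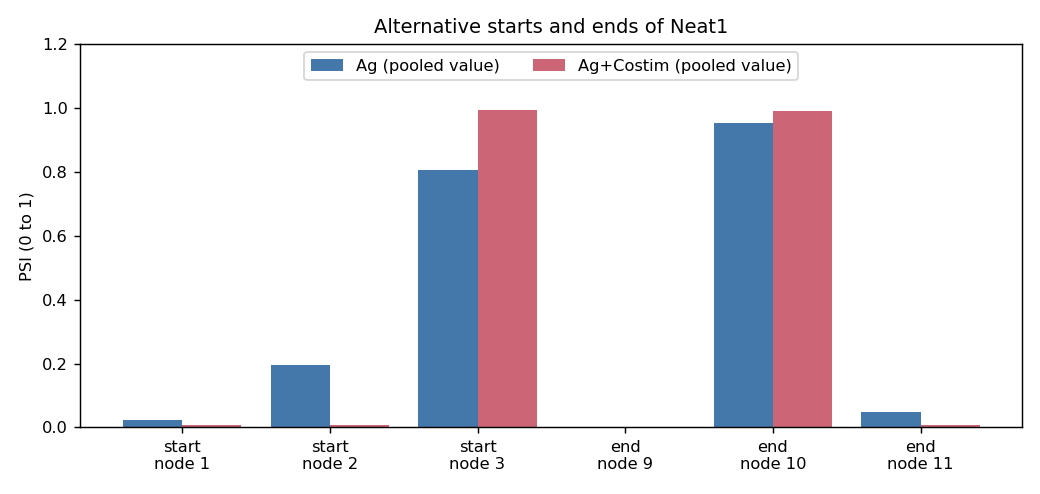
Pooled PSI (vertical axis, 0 to 1, 1 value per group and no error) of the alternative starts and ends of Neat1 in Ag and Ag+Costim. Start node 2 is at 0.194 in Ag and 0.0077 in Ag+Costim, and the end of the long form (node 11) is below 0.05 in both.

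No event of the 4 protein genes differed by more than 0.1. The core exons of Sfpq (8 events) were at 0.9987 PSI or above in both groups, and those of Nono (10 events) at 0.9996 or above. The largest difference in Pspc1 was 0.0284, and that in Matr3 was 0.0587, at an alternative start (0.0925 in Ag and 0.0338 in Ag+Costim).

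Other genes of these nuclear bodies were read from 4 lists, of which edgeR called 0 genes in each. Of 34 paraspeckle-associated proteins, 32 had a fold change above 0, 21 with an unadjusted p under 0.05, and 11 were higher without overlap. Over all genes tested, 7.89% were higher with an unadjusted p under 0.05 and 4.48% were higher without overlap, and 75.6% of the 8626 genes with a mean of at least 10 CPM were above 0. The shares over all genes tested include many genes of low level, while most of the list exceeds 10 CPM, so they are not matched in level. The median over the 34 genes was 0.50 on the log2 scale, against 0.24 over the 8626 genes. DESeq2 called 8 of the list higher and none lower, against 2.57% and 19.7% of all genes it tested. By lowest p these were led by Taf15, an RNA-binding protein (4.57 ± 1.37 to 10.2 ± 0.71 CPM, log2 fold change 1.15 ± 0.22, adjusted p 0.134 in edgeR), Hnrnpr (0.65 ± 0.15) and Hnrnpul1 (0.61 ± 0.15). Of 18 nuclear speckle proteins, 15 were above 0 (75.6% of the 8626 genes were), with a median of 0.41, and 4 were higher without overlap (4.48% of all genes were). Thrap3, a splicing-associated speckle protein, was at 126 to 150 CPM in Ag and 246 to 271 CPM in Ag+Costim (log2 fold change 0.87 ± 0.12, adjusted p 0.117). Srsf1 was at 0.83 ± 0.22, Bclaf1 at 0.46 ± 0.13 and Srrm1 at 0.57 ± 0.17.

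Of 11 genes for cutting and protecting such 3′ ends, all 11 were above 0, with a median of 0.47, beside 75.6% of the 8626 genes. In 1 of them, Elac2, which trims tRNA 3′ ends (0.58 ± 0.19), the groups did not overlap, a share not far from the 4.48% of all genes. Mettl16, which binds the Malat1 triple helix, was at 0.61 ± 0.22, and the RNase P subunits Pop1 and Rpp38 were at 0.64 ± 0.27 and 0.42 ± 0.22. The 9 other nuclear lncRNAs tested went both ways, 3 above 0 and 6 below, with a median of -0.21, where 62.3% of all genes tested were below 0 (median -0.32). Kcnq1ot1, which silences an imprinted cluster, was at 57.1, 33.5, 62.4, 56.2 and 14.0 CPM in Ag and 16.5 to 29.3 CPM in Ag+Costim (log2 fold change -1.04 ± 0.36, adjusted p 0.239 in edgeR). Airn was at -1.48 ± 0.68, and Meg3 (-4.61 ± 2.23) and Miat (-4.17 ± 2.30) were under 6 CPM in every library.

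**Figure D5:**
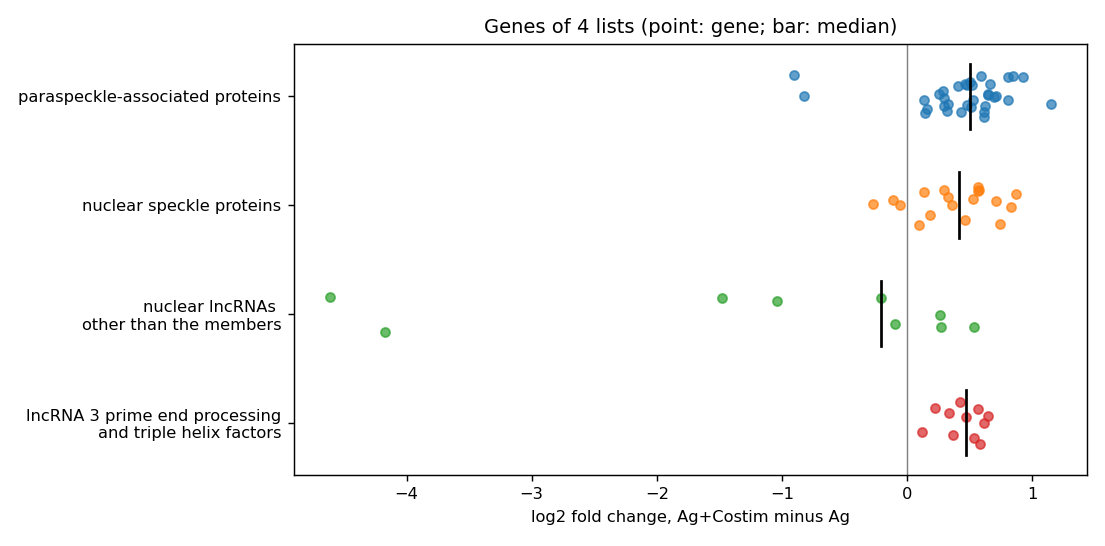
The log2 fold change of Ag+Costim over Ag (horizontal axis) for each gene of 4 lists, with 1 point per gene and a bar at the median. The medians are 0.50, 0.41, -0.21 and 0.47 from top to bottom.

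The genes closest to each member were ranked by Pearson's r of log2 CPM over the 10 libraries, among 8625 genes with a mean of at least 10 CPM. The points share the 2 groups and the split of the Ag libraries, so these values are descriptions. They were Alkbh5, Dot1l and Donson for Sfpq (r of 0.962 to 0.973), Aifm1, Hnrnpf and Dkc1 for Nono (0.996 to 0.997), Dis3, Smarcc1 and Vdac1 for Pspc1 (0.991 to 0.994) and Srp72, Tm9sf4 and Bap1 for Matr3 (0.977 to 0.978). For Neat1 they were Dmtf1, Ash1l and Gm4759 (0.954 to 0.963), and for Malat1 Cd55, Ephx1 and Gm14085 (0.984 to 0.988).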

How the data were processed

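Libraries were made by the authors with an oligo-dT kit that does not mark strand and sequenced as paired reads of 150 bases. Per the labels and the study's methods, reads were aligned to mm10 with HISAT2 2.1.0, sorted with SAMtools 1.9 and counted with StringTie 2.1.0. As deposited, the count tables hold estimated counts that the authors derived from coverage with StringTie, as whole numbers and not normalized. The deposited PSI values, made by the authors with Whippet, are a fraction per group, with libraries combined. The same table holds the authors' differences, probabilities and complexity measures, which were not used. Entries named by a number only (26248) and 97 others were left out of totals and tests.

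Genes and transcripts were tested over the whole table with edgeR 4.0.16 in R 4.3.3 (quasi-likelihood, TMM, filterByExpr, robust, BH 0.05). CPM values are TMM-scaled, and TPM were computed from transcript counts and lengths. DESeq2 1.42.0 (Wald test), limma 3.58.1 (voom with library weights) and edgeR's diffSpliceDGE were also run, and scripts were tested on simulated data. Exact permutation tests used SciPy 1.17.1. PSI differences past 0.1 were counted. Coordinates and sequences are those of GENCODE M21 on mm10. Named were all 6 genes, their transcripts with a mean share of at least 5% in a group, the 3 genes with the highest r for each, and the 4 genes of each list with the lowest p, as none passed (1 of these is not reported here). Nono-202 was named after its values were seen. Members and lists were chosen with earlier results of these data known. Alternatives covered scaling, filters, tools, a replicate block and left-out libraries.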

Additional observations from a re-analysis of the deposited data

Results flagged for a closer look

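Of 22 groups of 5 libraries checked for 1 library far from the rest, 3 had one (a gap over 0.71 of the group's range), where chance alone gives about 1 in 20. The share of Neat1 counts on the long transcript was lowest in Ag library 5, with 85.1%. The share of Pspc1 counts on non-coding transcripts was highest in Ag+Costim library 3, with 0.54%. The share of Matr3 counts on non-coding transcripts was highest in Ag+Costim library 1, with 3.58%.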

How the results depend on the processing

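Leaving out 1 library at a time gave log2 fold changes of 0.48 to 0.67 for Sfpq, 0.41 to 0.73 for Nono, 0.79 to 1.16 for Pspc1, 0.31 to 0.46 for Matr3, -0.51 to -0.03 for Neat1 and -2.07 to -1.51 for Malat1 in edgeR, 0 to 21 transcripts called (21 without Ag 5, 10 without Ag 2 or Ag 4, 3 without Ag+Costim 4 and 0 without Ag+Costim 1, 2 or 3), 33 to 93 genes with changed usage (93 without Ag 5, 84 without Ag 2 or Ag 4, 70 without Ag 1, 57 without Ag 3 and 47 without Ag+Costim 1), 0 genes called and a Neat1 long share difference of -5.50 to -0.56 points. Calls were made by other tools: DESeq2 called 8046 genes (log2 fold changes of 0.40 for Sfpq, 0.82 for Pspc1, 0.23 for Matr3 and -2.05 for Malat1), and limma voom called 12311 genes and 13668 transcripts (0.67 for Sfpq, 1.02 for Nono, 1.47 for Pspc1, 0.41 for Matr3 and -2.41 for Malat1). Sets of libraries were left out after the data were seen. Without Ag 2 and 5, edgeR called 16322 genes, 16734 transcripts and 464 usage genes (0.84 for Sfpq, 1.12 for Nono, 1.5 for Pspc1, 0.57 for Matr3 and -2.24 for Malat1). Without Ag 1, 3 and 4 it called 2752, 905 and 366, and Neat1 turned to 0.50, Neat1-201 to 0.42 and Nono-201 to -0.0059. Neat1 was at 0.0019 with no filter, Matr3-201 at -0.035 with total counts, and Sfpq-206 between -0.34 and 0.024 with 1 library left out (0.024 without Ag replicate 1). Usage calls were 143 with limma and 19 with at least 50 counts. At a PSI difference of 0.05, 5 events of the members were counted. Same-numbered libraries did not deviate together (correlations 0.251, 0.133, -0.102, -0.303 and 0.117), so the numbers were not taken as pairs. With the replicate block 0 genes, 0 transcripts and 30 usage genes were called, log2 fold changes were 0.53 for Sfpq, 0.62 for Nono, 1.01 for Pspc1, 0.36 for Matr3, -0.10 for Neat1 and -1.50 for Malat1, and the Neat1 share had p = 0.562 in an exact sign-flip permutation test. The cause of these changes was not tested.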
